A study of Mus musculus with 6 samples.

Results

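Wide H3K27me3 domains called only with TNFα were autosomal peaks of the wt+TNFα H3K27me3 list that spanned at least 5000 bp and shared 0 bp with any wt H3K27me3 peak. There were 2180 of them among the 48962 autosomal and 60540 total peaks of that list, and among 114580 peaks in the 4 lists of the series. They were 17.4% of the 12544 wide autosomal peaks of the list. The domains were chosen by the H3K27me3 calls of both conditions, so their presence with TNFα and absence in wt are a description and carry no test. The other 10364 wide autosomal peaks overlapped a wt peak and are called shared wide domains here, and 28183 narrower autosomal peaks were also called only with TNFα.

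Colonic organoids, which are three-dimensional epithelial cultures grown from the colon, came from C57BL/6 mice, with no transgene or deletion named in the labels (wt), and were compared with organoids of the same genotype that received TNFα at 40 ng/ml for 3 weeks (wt+TNFα). ChIP-seq of H3K27me3 and H3K4me3 and an input were made once per condition, 6 samples in all. With 1 library per condition and mark there was no replicate, so no error, test or p-value is given for any difference between the conditions. The labels do not say how many mice or cultures stand behind a library, and an organoid culture holds epithelium without the stroma, vessels and immune cells of the tissue.

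H3K27me3 is the trimethyl mark that Polycomb repressive complex 2 places on histone H3, and broad stretches of it cover genes kept silent in a cell type, such as developmental regulators. H3K4me3 sits at the starts of genes that are active or poised, most of which are rich in CpG dinucleotides. Where both marks lie on the same promoter it is often called bivalent, although in a bulk culture the marks on the same molecules and the marks on different cells cannot be told apart. In the same way, a mark on a few cells and a weak mark on all cells cannot be told apart.

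The sequences below show the 2 kinds of ground that the domains covered, with every CpG in capitals. A CpG reads the same on both strands. Coordinates are of GRCm38, and the promoter windows run from 250 bases before to 50 bases after the RefSeq start on the strand of the gene. Slc5a8 (chr10:88885742-88886041, plus strand, 50 bases in an exon) and Slc7a8 (chr14:54781837-54782136, minus strand, 110 bases in an exon) are given as promoters that lay wholly under a domain and had H3K4me3 in wt.
Slc5a8 promoter: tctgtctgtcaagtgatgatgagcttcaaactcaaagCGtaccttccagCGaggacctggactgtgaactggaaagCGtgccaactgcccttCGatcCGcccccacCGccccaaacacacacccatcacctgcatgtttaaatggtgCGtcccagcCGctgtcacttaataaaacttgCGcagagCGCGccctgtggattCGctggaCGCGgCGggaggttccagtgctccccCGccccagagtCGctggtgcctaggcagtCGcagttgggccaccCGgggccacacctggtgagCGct
Slc7a8 promoter: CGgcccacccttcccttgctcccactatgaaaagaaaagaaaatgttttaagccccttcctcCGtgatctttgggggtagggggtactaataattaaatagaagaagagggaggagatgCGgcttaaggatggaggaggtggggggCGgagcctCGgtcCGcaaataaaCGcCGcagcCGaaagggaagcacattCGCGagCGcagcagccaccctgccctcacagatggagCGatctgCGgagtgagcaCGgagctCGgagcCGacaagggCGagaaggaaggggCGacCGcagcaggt
Each of these windows held 20 CpG, against a median of 7 over 31396 autosomal RefSeq promoter windows and of 23 over those with H3K4me3. Creb3l1 (chr2:92023404-92023703, plus strand, intronic) and Camk2n1 (chr4:138455110-138455409, plus strand, 242 bases exonic) are shown at the centre of the wt H3K4me3 peak that lay inside the domain.
Creb3l1 H3K4me3 centre: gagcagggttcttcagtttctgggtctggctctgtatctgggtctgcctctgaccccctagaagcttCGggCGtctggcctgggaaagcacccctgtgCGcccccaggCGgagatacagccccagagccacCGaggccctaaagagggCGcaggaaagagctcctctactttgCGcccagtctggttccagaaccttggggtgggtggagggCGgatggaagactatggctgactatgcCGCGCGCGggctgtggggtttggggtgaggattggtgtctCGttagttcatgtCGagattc
Camk2n1 H3K4me3 centre: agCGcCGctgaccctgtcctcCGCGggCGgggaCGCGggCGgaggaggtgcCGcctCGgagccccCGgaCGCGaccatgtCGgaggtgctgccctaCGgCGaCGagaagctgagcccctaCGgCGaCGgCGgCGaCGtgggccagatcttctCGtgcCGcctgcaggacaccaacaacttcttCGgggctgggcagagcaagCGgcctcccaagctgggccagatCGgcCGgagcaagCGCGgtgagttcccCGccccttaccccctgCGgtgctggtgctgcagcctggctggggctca
They held 14 and 33 CpG, and of 47925 autosomal windows of 300 bases, taken 1 every 50000 bp, 1.01% and 0.144% held as many. The centre of the domain at Olfm4 (chr14:79985004-79985303, plus strand, intronic) and of the widest domain (chr1:90326304-90326603, plus strand, outside any gene) stand for the more common kind, with no H3K4me3 in either condition.
Olfm4 domain centre: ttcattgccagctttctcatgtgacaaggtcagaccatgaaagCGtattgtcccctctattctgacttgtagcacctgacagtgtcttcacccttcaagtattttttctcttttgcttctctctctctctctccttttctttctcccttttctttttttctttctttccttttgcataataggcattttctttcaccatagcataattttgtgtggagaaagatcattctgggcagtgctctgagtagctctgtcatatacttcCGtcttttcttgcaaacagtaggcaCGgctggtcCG
Widest domain centre: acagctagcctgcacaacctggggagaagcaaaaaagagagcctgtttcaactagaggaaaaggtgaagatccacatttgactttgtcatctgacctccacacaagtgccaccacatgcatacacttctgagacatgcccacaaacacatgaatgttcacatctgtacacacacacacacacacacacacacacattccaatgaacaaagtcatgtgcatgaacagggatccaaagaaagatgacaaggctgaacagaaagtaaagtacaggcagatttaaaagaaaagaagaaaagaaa
The Olfm4 window held 4 CpG, a number that 23.9% of the autosomal windows reached. The window of the widest domain held 0, as did 18.5% of the autosomal windows.

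The composition of the domains lay between that of shared wide domains and that of the autosomes. In the central 5000 bp the median GC content was 44.4% for the 2180 domains, 46.7% for shared wide domains and 41.4% for 47911 autosomal windows of the same length. The median CpG density was 0.920 per 100 bp in the domains, 1.14 in shared wide domains and 0.720 in the autosomal windows. A CpG-dense window, defined as 200 bp with more than 50% GC and an observed to expected CpG ratio above 0.6, occurred in 22.2% of the domains. It occurred in 40.8% of shared wide domains and in 20.9% of the autosomal windows. Bases masked as repeats made up a median of 22.3% of the domains and 27.4% of the autosomal windows.

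The libraries carried the marks of colonic epithelium. H3K4me3 was called at the promoters of the epithelial genes Epcam, Cdh1, Vil1, Cdx1, Cdx2, Krt8, Krt20 and Lgals4 in wt, and with TNFα at these promoters except that of Krt20. Of 12 markers of leukocytes, endothelium, fibroblasts, neurons and muscle, 0 had H3K4me3 at the promoter in either condition, and H3K27me3 lay at 9 of them in wt and 10 in wt+TNFα. The wt+TNFα H3K27me3 list was the longer one, with 228 Mb of autosomes under peaks against 101 Mb in wt. In the opposite direction 78 of 5257 wide autosomal wt peaks (1.48%) had no base under a wt+TNFα peak. Among peaks of any width, 62.0% of the autosomal wt+TNFα peaks and 14.9% of the autosomal wt peaks had no counterpart. The part that the longer list played in the number of domains cannot be told apart from TNFα with 1 library per condition. When the wt+TNFα peaks were cut to the strongest 7641, which cover as many autosomal bases as the wt list, 137 domains remained.

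The domains were modest in width and in enrichment. They covered 16.0 Mb, or 0.649% of the autosomes, and 7.01% of the autosomal bases under wt+TNFα H3K27me3 peaks. Their median width was 6461 bp, with the middle part of the distribution between 5595 and 8074 bp, and 240 spanned at least 10000 bp. Shared wide domains had a median width of 9972 bp. The fold enrichment that the peak caller gives over the input had a median of 1.94 and ran from 1.71 to 3.17, whereas shared wide domains had a median of 2.18 and reached 6.71. In the wt list, the 78 wide peaks without a wt+TNFα counterpart had a median of 2.27 and a minimum of 1.97. Of those, 98.7% reached a fold enrichment of 2, against 31.8% of the domains. Whether the weakest signal that could be called differed between the 2 lists was not tested. A −log10 q of at least 2 was reached by 311 domains (14.3%) and by 64.7% of shared wide domains. The median over the domains was 1.49 and the lowest value 0.762. The study states a q threshold of 0.01 for H3K27me3 peaks, a −log10 q of 2, so most domains carry a listed q weaker than it. How the listed q relates to that threshold is not stated. When all wide peaks were ranked by −log10 q and split into 4 equal groups, the share called only with TNFα was 43.1% in the weakest group, then 19.8% and 5.90%, and 0.702% in the strongest. By width it was 32.3% in the narrowest of 4 classes, 17.8% in the next, 6.10% between 10 and 20 kb and 0.823% from 20 kb. A wider peak has more bases that can meet a wt peak, so the differences in width follow in part from the rule.

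**Figure D1:**
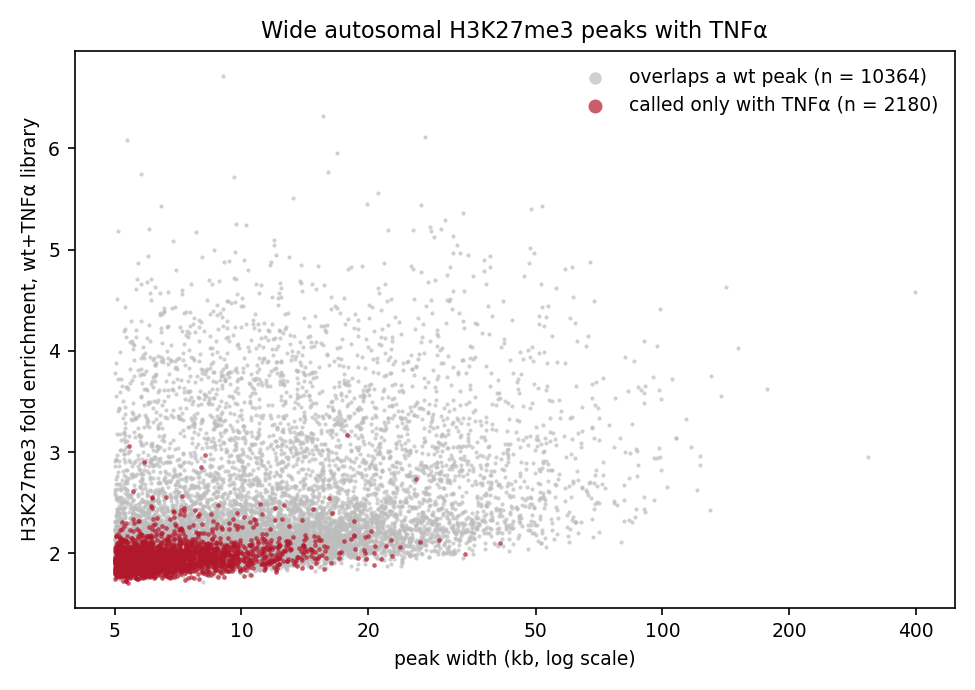
Width (kb, log axis) against H3K27me3 fold enrichment in the wt+TNFα library for each wide autosomal peak. Grey points are the 10364 peaks that overlap a wt peak and red points the 2180 domains called only with TNFα, which crowd at the narrow and weak end, with Creb3l1 (3.17) and Slc5a8 (3.06) as the 2 above 3. A wider peak has more bases that can meet a wt peak, so the crowding at narrow widths follows in part from the rule.

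At the width limit, the narrowest domain inside spanned 5000 bp (chr7:109427574-109432573, in Stk33, fold enrichment 1.96), and the widest peak left out spanned 4997 bp (chr12:101318480-101323476, fold enrichment 2.11). At the overlap limit, a domain in Sh3rf3 (chr10:59077964-59084847) lay 3 bp from a wt peak, and a peak on chromosome 9 (chr9:103521187-103527104) was left out for 9 bp under a wt peak. Of the shared wide domains, 956 had less than 1000 bp under wt peaks. The distance from a domain to the nearest wt H3K27me3 peak had a median of 9570 bp, and 1129 domains (51.8%) lay within 10 kb of one. The 28183 narrower peaks called only with TNFα lay at a median of 13209 bp. At the far end, 131 domains were more than 100 kb from any wt peak, spread over all 19 autosomes. One in Asap2 (chr12:21095473-21100790) was 3101587 bp away.

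The genes that the domains met tended to be long. The bodies of 723 protein-coding genes met a domain, which is 3.47% of the 20807 annotated on autosomes, and 239 genes (1.15%) had a promoter under one, counted as 1000 bp on each side of any transcript start. Of these 239 genes, 88 also had a wt H3K27me3 peak at another start or at the edge of the promoter. Shared wide domains, which cover 144 Mb, met 4136 gene bodies (19.9%) and 3676 promoters (17.7%). Per Mb covered, the domains met 45.2 gene bodies and 14.95 promoters, and shared wide domains 28.6 and 25.5. The narrower peaks called only with TNFα met 74.7 and 27.9, so the gene body value of the domains lay between the other parts. The genes whose bodies met a domain had a median length of 87231 bp, compared with 26543 bp under shared wide domains and 17629 bp for all autosomal protein-coding genes. A longer gene has more bases to meet, and no adjustment for length was made. Among peaks inside exactly 1 protein-coding gene, the median gene length was 144420 bp for the domains. It was 129034 bp for shared wide domains and 155872 bp for the narrower peaks called only with TNFα, so long host genes were not particular to the domains. Summed over all domains in a gene, at least 50% of the body was covered in 54 genes and at least 90% in 14. Counting all gene types, 1140 genes were met, among them 159 lincRNA, 66 antisense and 9 miRNA genes.

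Most domains lay away from gene starts. A promoter of any gene was under 472 domains (21.7%), compared with 47.8% of shared wide domains and 9.48% of the narrower peaks called only with TNFα. These are shares of regions, whose median widths were 6461, 9972 and 1342 bp, and by base the order differs. Promoters made up 5.73% of the bases of the domains, 10.6% in shared wide domains, 5.75% in the narrower peaks and 6.11% of the autosomes. Another 751 domains (34.4%) lay inside a gene without meeting a promoter, and the same was true of 19.5% of shared wide domains. No gene body was touched by 912 domains (41.8%), against 29.3% of shared wide domains and 50.5% of the narrower peaks. For protein-coding genes alone, 246 domains (11.3%) met a promoter and 825 (37.8%) lay wholly inside at least 1 gene body. The median distance to the nearest protein-coding start was 23846 bp, against 8769 bp for shared wide domains and 30313 bp for the narrower peaks. Base by base, 49.4% of the domain sequence lay in genes and 4.51% in exons, close to the 47.2% and 4.96% of the autosomes as a whole. Among the 808 that lay inside exactly 1 protein-coding gene, with the body cut into 3 equal parts, the centre fell in the first part for 28.0%, in the middle part for 39.7% and in the last part for 32.3%, and for shared wide domains the split was close to this, at 29.8%, 38.9% and 31.3%.

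**Figure D2:**
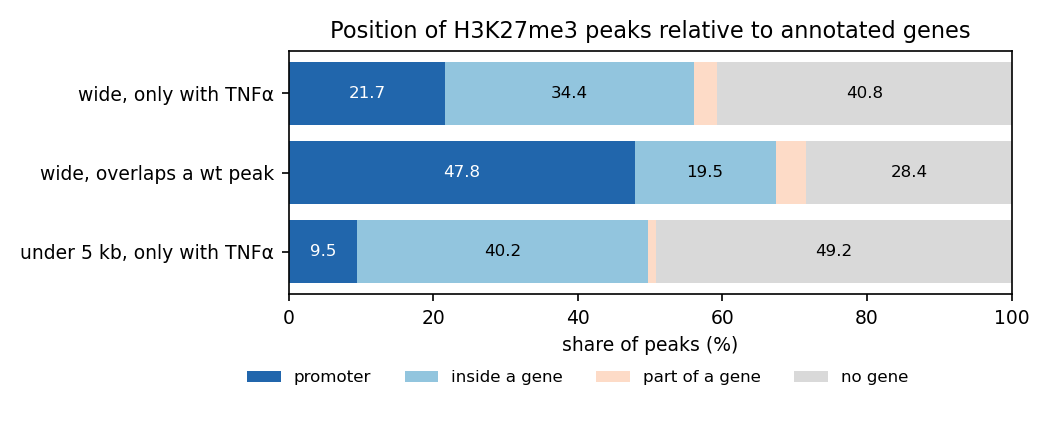
Share of peaks (%, stacked horizontal bars) that meet a promoter, lie inside a gene, overlap part of a gene without a promoter, or meet no gene, for all gene types. Wide domains called only with TNFα (21.7% with a promoter) sit between shared wide domains (47.8%) and narrower peaks called only with TNFα (9.48%) per region, while per base the domains (5.73%) and the narrower peaks (5.75%) are close.

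Of the 12 widest domains, 4 met a protein-coding promoter, those of Olfr1413, Olfm4, Dscaml1 and Iqca. The widest, 41093 bp at chr1:90305908-90347000, had a fold enrichment of 2.10 and touched no protein-coding gene, and its nearest protein-coding start was that of Ackr3, a scavenging chemokine receptor, 101902 bp away. It was followed by a domain of 33971 bp over the olfactory receptor gene Olfr1413 (chr1:92537678-92571648) and by one of 29498 bp with no protein-coding gene (chr3:105134021-105163518). Smad6, an inhibitor of BMP signalling, carried 26485 bp wholly within introns (chr9:63954731-63981215), which was 38.4% of its body. Its promoter had H3K4me3 in both conditions and a wt H3K27me3 peak, and no base of the domain. The others of the 12 widest lay over Olfm4, Slc7a8, Dscaml1, Iqca and Kirrel3, or had Glrp1, Osmr or Ackr3 as the nearest protein-coding start, 28665, 25999 and 44032 bp away. Of these 12, 5 met no protein-coding gene and 0 held an H3K4me3 peak, and their fold enrichments ran from 1.88 to 2.73.

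Several genes carried many domains. Shank2, a scaffold of the postsynaptic density, had 85726 bp under 11 domains, 20.3% of its 422567 bp. Grik4, a kainate-type glutamate receptor subunit, had 84743 bp under 7 domains, and Nckap5 had 83856 bp under 13, the most of any gene. Thsd4, a protein of extracellular microfibrils, had 74518 bp under 9 domains, and Dscaml1, a neuronal adhesion molecule, 63040 bp under 5. Gene bodies of unusual length in the annotation also ranked high, namely Fgfr2 with an annotated body of 2960900 bp and the readthrough model Gm20388 of 4434882 bp, so their counts are uncertain. The remainder of the 20 genes with most bases covered were Ccdc3, Slc7a8, Camta1, Rgs6, Kirrel3, Rora, Frmd4a, Lrguk, Iqschfp, Schip1, Cped1, Zfhx3 and Bach2. Iqschfp and Schip1 overlap and share the same 37447 bp. Of the 20 genes, 16 were longer than 300 kb, 14 had a wt H3K27me3 peak at a promoter, and 7 had a domain at one. In all, 171 genes carried at least 2 domains and 17 carried at least 5.

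Shorter genes were the ones covered whole. The body was wholly under a domain in 12 genes, among them the kallikreins Klk14, Klk1b26 and Klk1b8, which are secreted serine proteases, Olfr224, the acute-phase gene Orm3, Adam1b, Spint5 and the chemokine receptor gene Cxcr1. The interferon genes Ifna2 and Ifna15 were covered over 94.8% and 97.7% of their length. In all 14 genes covered over at least 90%, no H3K4me3 peak of either condition lay at a promoter. No wt H3K27me3 peak lay there either, which largely follows from the rule that a domain shares 0 bp with any wt peak. The Klk, Ifna and Olfr families have near-identical members, so reads there may be shared between copies. Slc7a8, which encodes a light chain of a neutral amino acid transporter, stood out among longer genes, with 73.0% of its 59738 bp under 3 domains (chr14:54716368-54727977, chr14:54740459-54764289 and chr14:54767925-54784290).

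The domains were spread over all autosomes and often lay near one another. They numbered from 0.386 per Mb on chromosome 18 to 1.31 per Mb on chromosome 2, with 1.24 on chromosome 11, 1.15 on chromosome 9 and 1.10 on chromosome 1. No list held a peak on chromosome 1 before position 9237056, so that stretch could give no domain. The gap to the nearest other domain had a median of 82423 bp, and 1185 domains (54.4%) had a neighbour within 100 kb. The density of the parts differs, which bears on such shares, and 88.2% of the shared wide domains, at 4.21 per Mb, had one of their own kind within 100 kb. When domains with gaps of at most 100 kb were joined into chains, 995 domains stood alone, 424 chains held at least 2, and 40 chains with at least 5 held 245 domains. Of 2473 windows of 1 Mb, 1514 held no domain and 93 held at least 5, which together carried 610 domains.

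**Figure D3:**
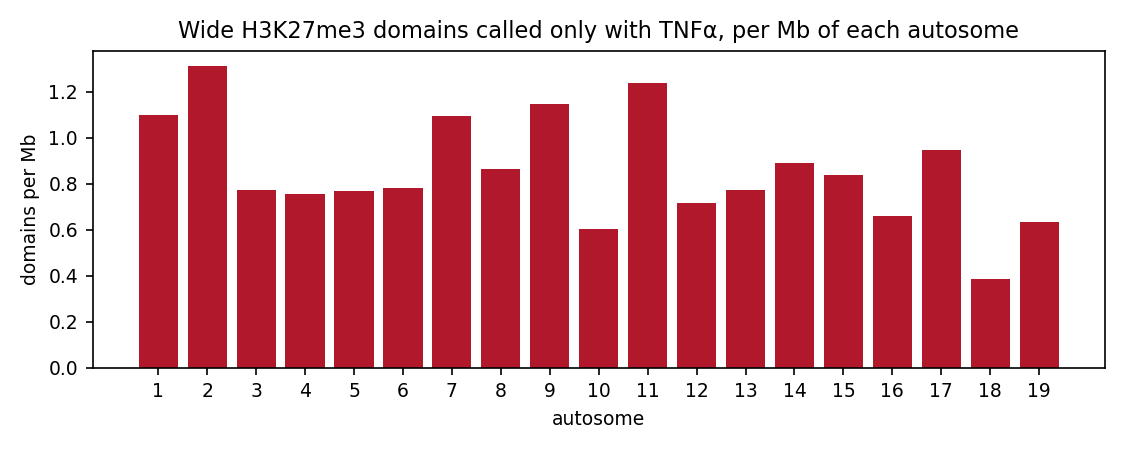
Number of wide H3K27me3 domains called only with TNFα per Mb of each autosome (bars from 0). Chromosome 2 had 1.31 per Mb and chromosome 18 had 0.386.

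The longest chain held 12 domains over 461484 bp (chr7:143949090-144410573), 11 of them in Shank2, with 0.407% of the span under wt peaks and 40.5% under wt+TNFα peaks. A chain of 10 at chr1:90013966-90445918, around Asb18, Iqca and Ackr3, included the widest domain, and 74.8% of it was under wt+TNFα peaks against 5.99% in wt. The other chain of 10 (chr1:125939118-126287272) lay within Nckap5 and held 0 wt peaks and 35 wt+TNFα peaks. The chain of 9 at chr7:43685612-44033835 ran through the kallikrein cluster, with 17 Klk genes in the span, among them Klk5, Klk12, Klk13 and Klk14, and with 6.79% of bases under wt peaks and 49.9% under wt+TNFα peaks. A chain of 8 ran from Jazf1 to Creb5 (chr6:53015347-53313687), with 10.4% of bases under wt peaks and 63.8% under wt+TNFα peaks. Among the 12 chains with most domains (ties broken by bases covered), the share covered by domains was highest in Grik4, where 6 domains of 6736 to 18877 bp covered 85.7% of 87387 bp (chr9:42542768-42630154) and fold enrichments lay between 1.95 and 2.04. No wt peak lay within that span.

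Olfm4, a marker gene of intestinal stem cells, lay in a chain of 8 domains (chr14:79877753-80058624) with 0 wt H3K27me3 peaks and 17 wt+TNFα peaks, which covered 56.4% of the span. Its main domain spanned 25938 bp (chr14:79972185-79998122) with a fold enrichment of 2.73 and a −log10 q of 5.22, the sixth highest fold enrichment of all domains. A second domain of 7637 bp (chr14:80003835-80011471) lay further along the gene, with a fold enrichment of 2.14. Together they covered 55.5% of the gene body. The main domain covered the most upstream annotated start, at position 79984081. The other 2 annotated starts, at 80000251 and 80000302, fell in the gap of 5712 bp between the domains, 2129 and 2180 bp after the end of the main one, and were under no wt+TNFα peak. No H3K4me3 peak lay at the Olfm4 promoters in either condition. The nearest wt H3K27me3 peak was 196306 bp from the main domain. The paper reports that TNFα induced Olfm4 expression in wt organoids. It also reports less H3K27me3 at the promoters of stem cell genes whose expression rose. RNA was not analysed here, so no effect on Olfm4 expression is read from these peaks.

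**Figure D4:**
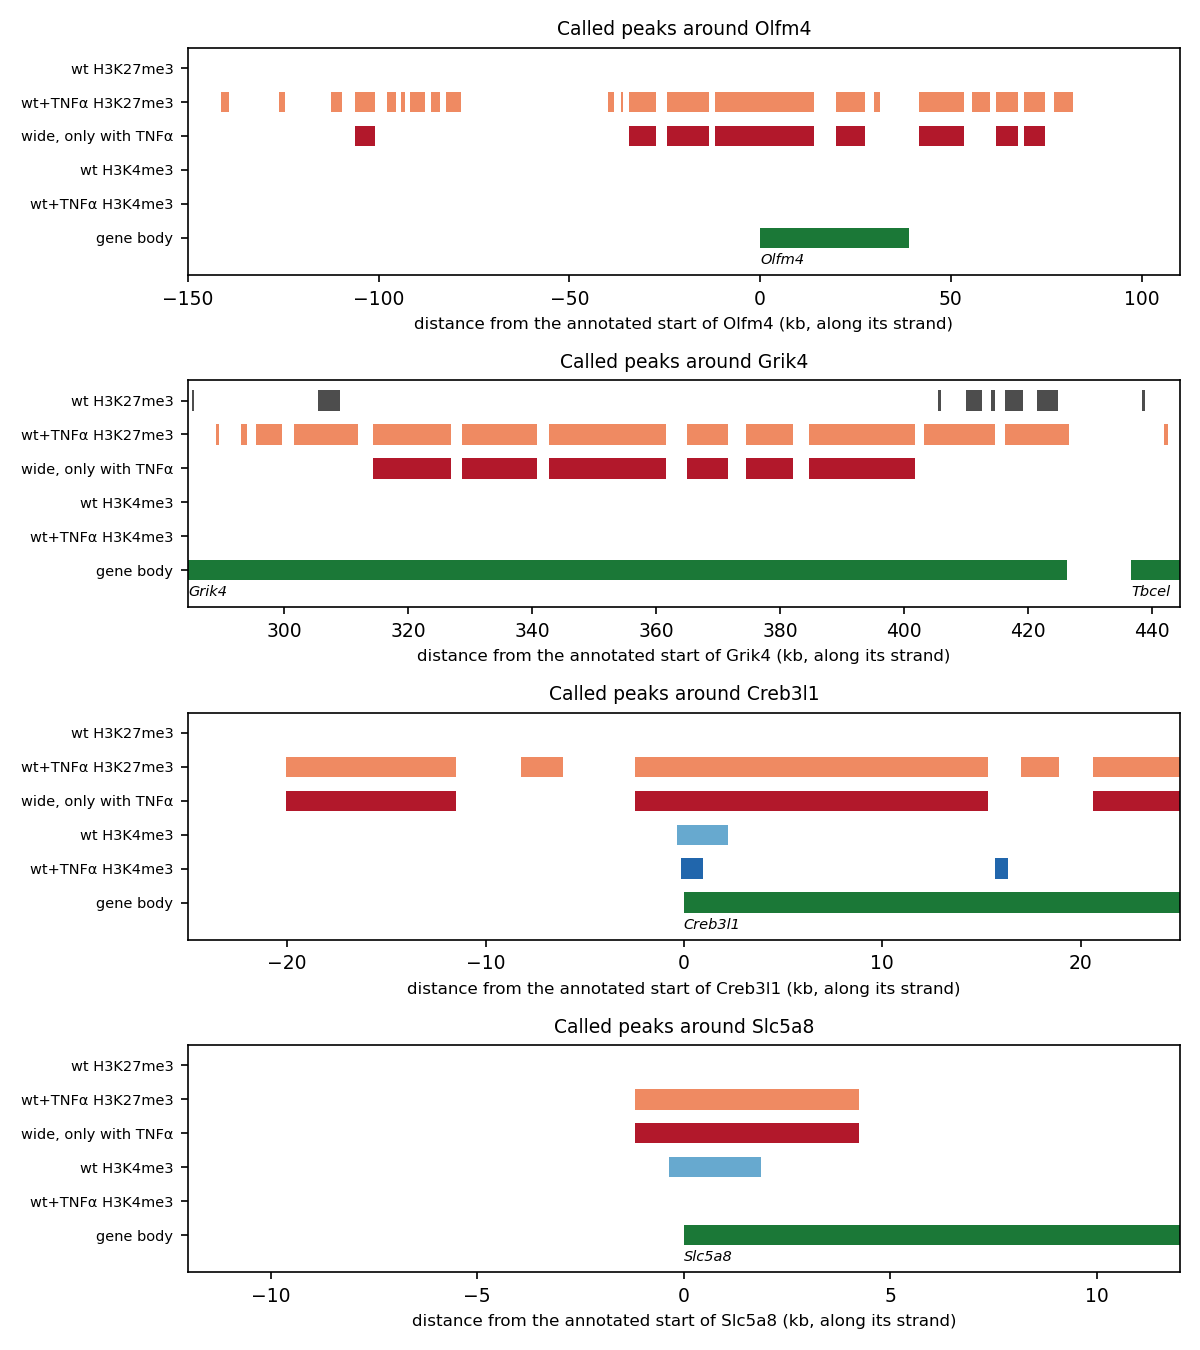
Called peaks around Olfm4, Grik4, Creb3l1 and Slc5a8, with the distance from the annotated gene start (kb, along the strand of the gene) on the horizontal axis. Rows give wt and wt+TNFα H3K27me3 peaks, the wide domains called only with TNFα (red), wt and wt+TNFα H3K4me3 peaks, and gene bodies. Olfm4 has domains with 0 wt peaks and no H3K4me3, and the wt H3K4me3 peak of Slc5a8 (2206 bp) has no wt+TNFα counterpart.

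H3K4me3 was rare inside the domains in both conditions. In wt 24 domains (1.10%, exact 95% binomial interval 0.707 to 1.63%) held an H3K4me3 peak, and in wt+TNFα 21 did (0.963%, 0.597 to 1.47%). The intervals cover counting error over the domains of 1 library only and do not compare the conditions. Among shared wide domains the shares were 5.32% and 5.42%. They were 0.323% and 0.302% for the narrower peaks called only with TNFα, but per Mb the order turned, with 1.502 and 1.314 H3K4me3 peaks in the domains and 1.99 and 1.86 in the narrower peaks. The share was higher in stronger domains, at 6.11% in wt and 4.82% in wt+TNFα for the 311 domains with a −log10 q of at least 2. By bases, 0.157% of the domain sequence was under wt H3K4me3 peaks and 0.104% under wt+TNFα ones. The values were 0.295% and 0.305% in shared wide domains, 0.131% and 0.101% in the narrower peaks, and 0.724% and 0.792% over the autosomes. In 19 domains both conditions had a peak inside, in 5 wt alone, in 2 wt+TNFα alone and in 2154 neither. The median distance to the nearest H3K4me3 peak was 87185 bp in wt and 86473 bp in wt+TNFα.

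The 26 domains with H3K4me3 differed from the rest in sequence and in H3K27me3. Of them, 24 met a protein-coding promoter and, searched over the whole domain rather than its central 5000 bp, 23 (88.5%) held a CpG-dense window, which 29.2% of the other 2154 did. Their median H3K27me3 fold enrichment was 2.23, against 1.94 for the others, and 19 reached a −log10 q of 2. Among the 10 domains with the highest fold enrichment, 8 met a protein-coding promoter and 6 held H3K4me3. In the RefSeq table, 200 promoter windows lay wholly under a domain. The 14 of these with H3K4me3 had a median of 22 CpG and the 186 without had 4, close to the medians of 23 and 4 over all autosomal promoter windows with and without H3K4me3.

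Where both conditions had a peak, H3K4me3 inside the domains was mostly narrower with TNFα. Each wt H3K4me3 peak was paired with the wt+TNFα peak that overlapped it most. Of the 19 pairs inside the domains, 16 (84.2%) were narrower in wt+TNFα, with a median width of 1183 bp in wt and 1024 bp in wt+TNFα and a median ratio of 0.790. Over all 10867 autosomal pairs 25.3% were narrower, and the median ratio was 1.07. In shared wide domains 49.0% of 473 pairs were narrower, and under the narrower peaks called only with TNFα 56.0% of 75. The fold enrichment of H3K4me3 was lower with TNFα in 14 of the 19 pairs (73.7%), with a median ratio of 0.766, and in 39.3% of all autosomal pairs, with a median ratio of 1.08. In shared wide domains it was lower in 56.0% of the pairs, and under the narrower peaks in 70.7%. H3K4me3 did not enter the choice of the domains. The wt+TNFα H3K4me3 and input libraries were sequenced more deeply than those of wt, and the part of depth in these values was not tested. Each pair compares the same 2 libraries, so the pairs are not replicates and no test was made.

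**Figure D5:**
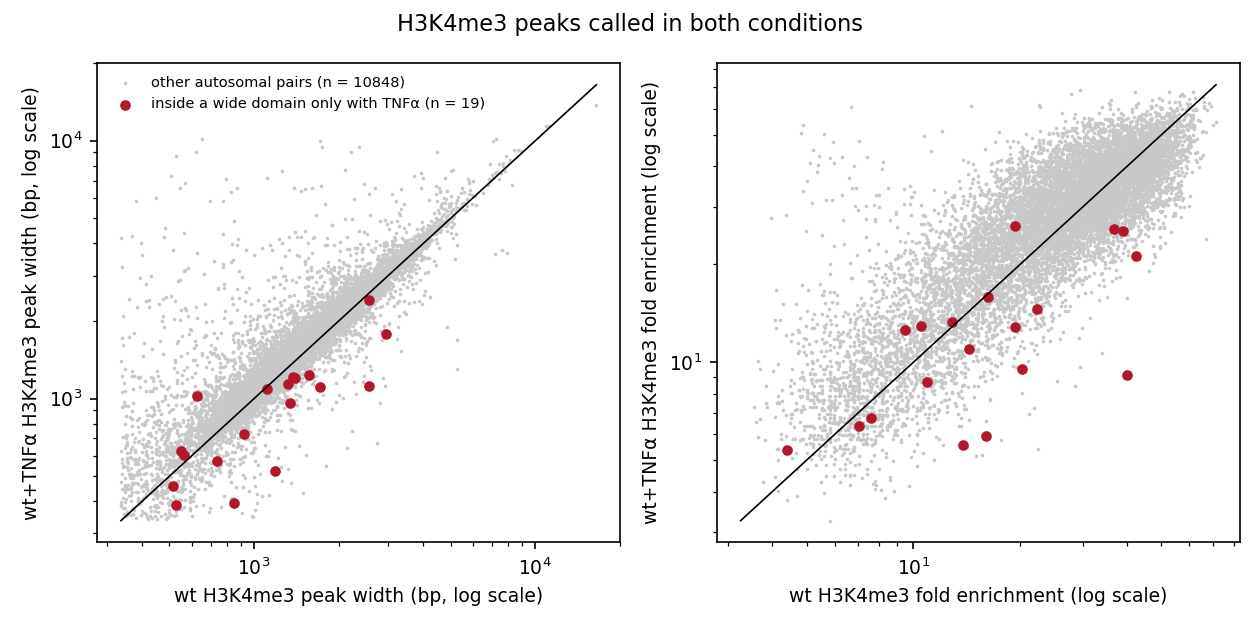
Width (left, bp) and fold enrichment (right) of H3K4me3 peaks called in both conditions, wt on the horizontal and wt+TNFα on the vertical axis, both on log scales. The line marks equal values, grey points are other autosomal pairs, and the 19 red points are pairs inside the domains, of which 16 lie below the line for width and 14 for fold enrichment.

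Creb3l1, a transcription factor anchored in the endoplasmic reticulum membrane, had the domain with the highest H3K27me3 fold enrichment, 3.17 over 17802 bp (chr2:92009150-92026951). The remainder of the 10 strongest were at Slc5a8, Camk2n1, Olfm4, Dab2ip, Pde9a, Gpr160 and Gfod1, in an intron of the readthrough model Gm20388 (chr8:123861808-123867674), and 19214 bp from the mucin gene Muc3a (chr5:137184917-137192934, 2.86). Of the Creb3l1 domain 14854 bp were intronic, 499 bp exonic and 2449 bp outside genes. H3K4me3 at its promoter measured 2561 bp with a fold enrichment of 40.0 in wt and 1123 bp with 9.14 in wt+TNFα. Camk2n1, an inhibitor of calcium/calmodulin-dependent kinase II, had a domain of 8210 bp (chr4:138450228-138458437, fold enrichment 2.97). Its H3K4me3 peak was nearly as wide with TNFα, 2411 bp against 2568 bp, and its H3K4me3 fold enrichment was 25.3 against 39.0.

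Wipf1, which binds the actin regulator WASP, had the highest wt H3K4me3 fold enrichment of the 19, at 42.5 over 1324 bp, and 21.2 over 1137 bp with TNFα. Sema6d, a semaphorin, went from 2934 bp with 36.8 to 1781 bp with 25.7. Dock8, a guanine nucleotide exchange factor, kept its width, 1113 bp and 1087 bp, with fold enrichments of 22.4 and 14.5. For Slc7a8 the values were 1183 bp with 13.8 in wt and 523 bp with 5.57 in wt+TNFα. Pde9a, a cyclic GMP phosphodiesterase, had 850 bp with 16.0 and 394 bp with 5.93. The other way, Kank3 widened from 549 to 628 bp and Tdrkh from 628 to 1024 bp, and the third pair that widened, from 563 to 603 bp, lay at chr6:51604867-51614406 with no protein-coding gene under it.

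In 5 domains the H3K4me3 peak inside was called in wt alone. Slc5a8, a sodium-coupled transporter that takes up short-chain fatty acids such as butyrate in the colon, had the second highest H3K27me3 fold enrichment, 3.06 over 5419 bp (chr10:88884800-88890218), which covered its promoter. Its H3K4me3 peak spanned 2206 bp at 19.9-fold enrichment, lay wholly inside the domain in wt and had no counterpart in wt+TNFα. Dab2ip, a Ras GTPase-activating protein, had a wt peak of 680 bp (fold enrichment 9.79) at one of its starts, while H3K4me3 at other starts of the gene was called in both conditions. Klb, a co-receptor of fibroblast growth factors, had a peak of 830 bp (10.9) and Cped1 one of 337 bp (4.91). At Boc, a wt peak of 2183 bp reached 27 bp into the domain, and its wt+TNFα counterpart lay outside it. Of the 24 wt H3K4me3 peaks in the domains, 4 had no overlapping wt+TNFα peak, compared with 97 of 572 in shared wide domains and 3.26% of all autosomal wt H3K4me3 peaks.

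In 2 domains the H3K4me3 peak inside was called in wt+TNFα alone. At 380 bp and 6.31-fold enrichment, the first lay past the end of Zap70, at no protein-coding promoter. The other, of 367 bp and 6.86-fold, lay at the promoter of Cd1d1, which presents lipid antigens. Both were below the median H3K4me3 peak of the wt+TNFα list, 1519 bp and 27.5. Over all autosomes 6.58% of the wt+TNFα H3K4me3 peaks had no wt counterpart. At the 239 genes with a promoter under a domain, H3K4me3 was called at some promoter of 67 (28.0%) in wt and 62 (25.9%) in wt+TNFα, against 51.8% and 52.6% of all autosomal protein-coding genes.

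Gene lists chosen with earlier results of these data known were read for members under the domains, beside the 3.47% of all protein-coding genes. Among colonic stem cell genes 3 of 16 (18.8%) met a domain, Olfm4, Lgr5 and Smoc2. By promoter 1 of 16 did (6.25%, beside 1.15% of all genes). The same list counted 3 of 16 under the narrower peaks called only with TNFα (18.8%, beside 16.4% of all genes). Under shared wide domains it counted 2 of 16 (12.5%, beside 19.9%). Lgr5, the receptor for R-spondins that marks intestinal stem cells, had 1 intronic domain of 6255 bp (chr10:115503146-115509400, fold enrichment 1.89), 78380 bp from its start, and a wt H3K27me3 peak at its promoter. Smoc2, a matricellular protein, had 6963 bp (chr17:14368710-14375672, fold enrichment 1.80) at 89204 bp from its start. Dclk1 was the 1 of 10 tuft cell genes, with 3 domains of 5334 to 8798 bp. In the lists of goblet cell, enteroendocrine and colonocyte genes 0 of 11, 0 of 16 and 0 of 20 were met.

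Il6, the gene of an inflammatory cytokine, was the 1 of 25 TNF and NF-κB response genes that met a domain, and the 1 of 16 senescence genes. Its domain of 5451 bp (chr5:30016039-30021489, fold enrichment 1.88, −log10 q 1.26) began 2925 bp after its start, covered 57.4% of the gene, and lay 4975 bp from a wt H3K27me3 peak. No H3K4me3 peak lay at its promoter in either condition. Of the markers of other cells, Pecam1 of endothelium was the 1 of 12 that met domains, 2 of them with fold enrichments of 1.92 and 1.91. No chemokine of 13 and no Polycomb gene of 19 was met.

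The share of genes met differed between lists, with no test and no adjustment for gene length. Of 42 collagen genes 12 (28.6%) carried 18 domains, of which 1, at Col6a1, covered the first annotated start, and 5 of the 12 genes had some transcript's promoter under a domain. Of all 42, 76.2% met a shared wide domain and 83.3% a narrower peak called only with TNFα. Of all protein-coding genes 19.9% and 16.4% did so. Col14a1 had 5 domains of 5087 to 7501 bp, and Col7a1, the collagen of anchoring fibrils, had 29.1% of its body under 1 domain of 9103 bp (chr9:108967129-108976231). Of 39 calcium and sodium channel genes 8 (20.5%) were met (Cacna1b, Cacna1d, Cacna2d4, Cacnb2, Cacnb4, Cacng2, Cacng4 and Cacng5), while 66.7% met a shared wide domain and 56.4% a narrower peak called only with TNFα. Their 8 domains lay 8520 to 432817 bp from the gene start. Of 91 potassium channel genes 8 (8.79%) were met, and of 57 Adam and Adamts proteases 5 (8.77%). Solute carriers counted 24 of 366 (6.56%), and in 8 of them (2.19%, beside 1.15% of all genes) a promoter was met, as in Slc5a8, Slc7a8 and Slc16a7. Under shared wide domains and the narrower peaks, the potassium channel shares were 50.5% and 34.1%. They were 35.1% and 40.4% for the proteases and 29.8% and 28.4% for solute carriers, so the higher shares were not particular to the domains.

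Hox genes, which are classic Polycomb targets, counted 0 of 39 under the domains and 56.4% under shared wide domains. Keratins, the filament proteins of epithelia, counted 0 of 49 and 53.1%, and the Sox, Pax, Tbx and Fox transcription factor genes 1 of 80 (Pax5) and 65.0%. Wnt and Frizzled genes counted 1 of 29 (Wnt8a) and 82.8%. A domain shares 0 bp with any wt peak, so wide peaks over places marked in wt count as shared. These contrasts therefore follow in part from the rule. Olfactory receptors counted 13 of 1086 (1.20%), zinc finger proteins 4 of 383 (1.04%) and vomeronasal receptors 1 of 325, all below the 3.47% of all genes. By promoter, 14 of 1086 olfactory receptors (1.29%) were met, beside 1.15% of all genes. GABA and glycine receptors counted 1 of 21, contactins, neurexins and neuroligins 2 of 18, adhesion G protein-coupled receptors 2 of 25, cytochromes P450 3 of 94 and leucine-rich synaptic proteins 0 of 20. Serpins counted 0 of 60 and cadherins and protocadherins 3 of 89 (3.37%).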

How the data were processed

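Colonic organoids with and without TNFα were profiled by ChIP-seq for both histone marks, and the 4 deposited peak lists were analysed. Reads and input libraries were not used here. The authors trimmed reads with fastp, aligned them with BWA to GRCm38/mm10, used SAMtools to drop duplicates and masked blacklisted regions. They ran MACS2 on each library against the input, with broad peaks at a q cutoff of 0.01 for H3K27me3. The submitters' processing notes name BWA 2.2, SAMtools 1.11 and MACS2 2.1.0, and the paper's methods and reporting summary differ in the MACS2 version. In the deposited lists fold enrichment is a ratio of ChIP to local background, and the authors wrote p-values and q-values on the −log10 scale. A spike-in that the methods do not describe appears in the names of 3 of the 4 lists, not in that of H3K27me3 with TNFα, and whether that list was made differently is not stated. Read totals per library were not taken from the lists, so the depth behind a peak is unknown here. The study's reporting summary gives near-equal read totals for the H3K27me3 libraries, and fewer reads in wt than in wt+TNFα for H3K4me3 and input.

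Domains, genes (GENCODE M21), promoters, chains and H3K4me3 overlaps were computed in Python 3.11.15 with numpy 2.4.6, pandas 2.3.3, scipy 1.17.1 and pysam 0.24.0, and plots in matplotlib 3.10.9. Sequences are of the RefSeq GRCm38.p6 assembly and promoter table. An overlap of 1 bp counted. The steps were checked on simulated peak lists with planted overlaps. The domains and the gene lists were chosen with earlier results of these data known. Named items are the 12 widest and 10 strongest domains, the 20 genes with most bases covered, the 5 domains with the highest H3K4me3 fold enrichment in each of the classes both, wt alone and wt+TNFα alone, the 6 chains with most domains, list members under a domain, and domains next to the limits. The comparison of H3K4me3 widths and fold enrichments in pairs, the Grik4 chain, Smad6's promoter, the H3K4me3 pairs that widened, the genes covered over at least 90% and the domain farthest from a wt peak were chosen after their values were seen. Some list members are not reported here. Alternatives changed the width, the wt overlap, the strength of wt+TNFα peaks, joining, and the gene, distance and H3K4me3 criteria.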

Additional observations from a re-analysis of the deposited data

Results flagged for a closer look

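Chromosome X lay outside the autosomal domains and held 3361 wide H3K27me3 peaks called only with TNFα, 95.8% of its 3509 wide wt+TNFα peaks. They covered 50.7 Mb at 19.7 per Mb, against 0.885 per Mb for the domains on the autosomes. The wt list held 26 wide peaks on chromosome X, of which 0 were without a wt+TNFα counterpart. The sex of the mice behind each culture is not given in the labels, and its part in this signal was not tested.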

How the results depend on the processing

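Each value rests on 1 library per condition and mark, so neither the spread between cultures nor the share of the difference that came from library quality could be measured. No paired analysis was possible because each group holds 1 sample and no result comes from a test. No 2 wt+TNFα peaks lay closer than 1441 bp, so joining peaks within 1000 bp changed nothing. Of 62 alternatives, 26 left the value within 1.5 times (counts) or within the exact 95% binomial interval (shares).

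The number of domains was 5972 at a minimum width of 3000 bp and 240 at 10000 bp, 311 with a −log10 q of at least 2, 693 with a fold enrichment of at least 2, and 137 with the strongest peaks up to the covered length of wt. Protein-coding genes met were 1452, 109, 138, 264 and 71 in the same order, 54 when at least 50% of the body had to be covered, and 1140 with all gene types. Domains with no base in a gene body were 45.3% at 3000 bp, 38.8% at 10000 bp, 39.5% by −log10 q, 36.5% with the strongest peaks, and 54.6% for protein-coding bodies alone. Domains within 100 kb of another were 77.8%, 22.1%, 21.2% (−log10 q), 32.8% (fold enrichment) and 9.49% (strongest peaks), 47.9% with wt peaks extended by 5000 bp, 38.4% within 50 kb, 81.9% within 500 kb and 60.8% with peaks within 3000 bp joined, a choice made after seeing the data. This share falls by construction when fewer domains are kept.

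H3K4me3 inside the domains was 1.67% in wt+TNFα and 1.67% in wt at 10000 bp, 4.82% and 6.11% by −log10 q, 2.16% and 2.74% by fold enrichment, 8.76% and 11.7% with the strongest peaks, and 0% and 0.275% when only H3K4me3 peaks stronger than their list's median −log10 q counted. The cause of these moves was not tested. The share of H3K4me3 peaks narrower with TNFα was 84.6% (11 of 13) when peaks reaching out of a domain were left out. It was 84.2% (16 of 19) when all overlapping peaks were summed. Both were chosen after seeing the data. The pairs are few and come from the same 2 libraries, so staying within a binomial interval shows little here.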
